A study of Mus musculus with 30 samples.

Results

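The libraries described here are the 12 with the highest and the 12 with the lowest level of Dbp among 30 RNA sequencing libraries of mouse colon epithelium. Dbp was expressed in CPM, the count of the gene per 1000000 counts of the library. Within each of 6 groups of 5 mice, the 2 libraries with the highest and the 2 with the lowest Dbp CPM were taken, which left the middle library of each group out. The members were thus chosen by a measured value, so Dbp itself is described without a test, and the comparison asks which other transcripts followed Dbp among mice of the same sex and treatment.

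The study examined how sex shapes the colon transcriptome in colitis and the tumors that follow it. Females and males of the wild-type strain C57BL/6J were given vehicle (F Veh, M Veh) or AOM/DSS and killed at 9 weeks (F 9, M 9) or at 15 weeks (F 15, M 15). Every mouse gave 1 library. AOM/DSS is a single injection of the carcinogen azoxymethane, given at 10 mg/kg, followed by 3 periods of the irritant dextran sulfate sodium, given at 2.5% in the drinking water. The vehicle groups date from 9 weeks only. By the study's methods the mice were young and of a range of ages at the start, and the age of each mouse is not in the labels. The tissue was the epithelial layer scraped from the colon, which also carries some cells of the wall and the lamina propria. The time of day at which each mouse was killed is not given in the sources used here, and no mouse was assigned to a level of Dbp, so the comparison is one of co-variation between mice.

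Dbp (D site albumin promoter binding protein) is a PAR bZIP transcription factor whose transcript oscillates over the day in most tissues, the colon included. In the circadian clock, CLOCK or NPAS2 pairs with ARNTL (BMAL1) and binds E-boxes in the promoters of the Per and Cry genes, of Ciart, of Nr1d1 and Nr1d2 and of Dbp and Tef, and the PER and CRY proteins then repress this activation. REV-ERB proteins, encoded by Nr1d1 and Nr1d2, repress Arntl, Npas2 and Cry1 through ROR elements, so that these transcripts peak at another time of the day than Dbp, while DBP, TEF and HLF activate genes through D-boxes and NFIL3 represses them there.

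The level of Dbp differed widely between mice of a group. In F Veh the high libraries held 55.5 and 24.8 CPM, the middle library 18.02 and the low libraries 6.98 and 4.43. In M Veh they held 179 and 112, then 62.5, then 45.8 and 12.9 CPM, the highest values of any group. In F 9 they held 39.7 and 16.2, then 15.2, then 12.2 and 3.28 CPM. The second high library of F 9 thus lay close to the middle library, and the line between high and middle was narrow there. In M 9 the high libraries held 53.5 and 28.1 CPM, the middle library 5.04 and the low libraries 2.79 and 2.61. In F 15 they held 56.6 and 33.4, then 9.22, then 5.26 and 5.09 CPM. In M 15 they held 19.4 and 10.9, then 10.1, then 7.80 and 5.17 CPM, the narrowest range of the 6 groups, and the high libraries there lay below the 45.8 CPM of a low library of M Veh. High and low are therefore levels within a group and not fixed levels, and the group was a term in every fit.

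**Figure D1:**
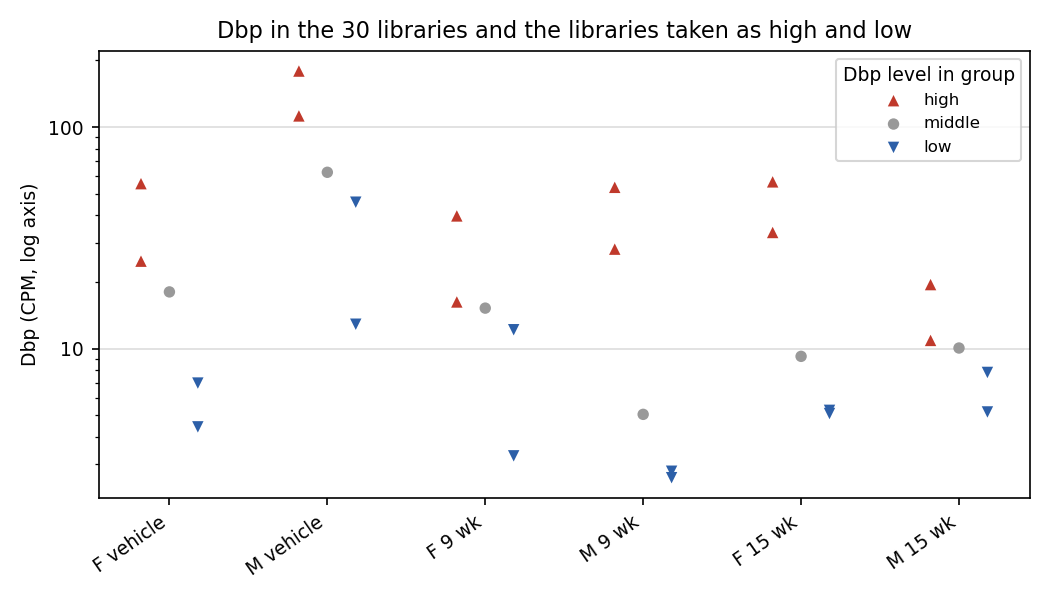
Dbp in CPM (log axis) in each of the 30 libraries, by group, with triangles for the libraries taken as high or low and circles for the middle library. The values ran from 2.61 CPM in M 9 to 179 CPM in M Veh, and the high libraries of M 15 (19.4 and 10.9 CPM) sat below the upper low library of M Veh (45.8 CPM).

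Depth did not separate the levels. Total counts ran from 21805669 to 29776556 in the high and from 18974134 to 30806392 in the low libraries. The library with the lowest total, 9265804 counts, was a middle library and is in neither level. Summed markers of epithelium ran from 15596 to 23318 CPM in the high and from 14067 to 20246 CPM in the low libraries. Epithelium was thus present in every high and low library by the sum, which can hide a single marker. Cdx2, on that list, was as low as 4.03 CPM in the high libraries, against 173 CPM or more in the low. Its log2 difference in M Veh was -2.99. A high library, M Veh replicate 1, stood apart with 7549 CPM of summed smooth muscle markers, against at most 141 CPM in the other high and 134 CPM in the low libraries. The main values that rest on that library are given below with and without it.

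Of 16278 genes tested besides Dbp, 10 differed between high and low Dbp libraries (0.0614% of the genes tested). Of these, 7 were higher (0.043%) and 3 were lower (0.0184%) in the high libraries. The higher genes were Ciart, Tef, Per1, Per2, Per3, Usp2 and the immunoglobulin segment Igkv4-63, and the lower genes were Npas2, Arntl and Cry1. A gene was called when its adjusted p was under 0.05 (edgeR's quasi-likelihood test with Benjamini-Hochberg adjustment over all genes tested), the size of its log2 fold change exceeded 0.4 and the high or the low libraries averaged 1 FPKM or more. Without adjustment, 1319 genes (8.1%) had p under 0.05. The median log2 fold change of all genes tested was 0.0013. All 10 called genes kept their direction under every other setting and with any 1 library left out, but the calls needed most of the groups: without M 9 only 1 higher and 1 lower gene passed, and without F 15 only 1 and 2.

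**Figure D2:**
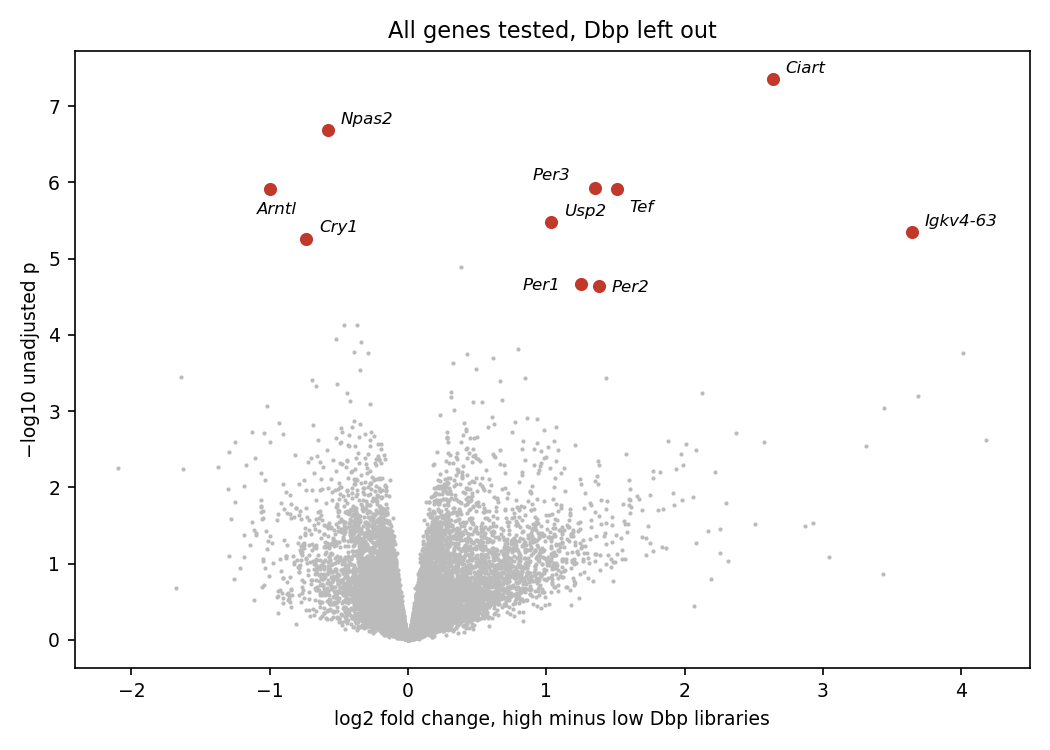
Log2 fold change between high and low Dbp libraries (x axis, high minus low) against the −log10 unadjusted p (y axis) for the 16278 genes tested, with the 10 called genes in red. Ciart, Npas2, Per3, Arntl, Tef, Usp2 and Cry1 lay above the rest of the genes together with Igkv4-63, while Per1 and Per2 lay just below a gene with a smaller fold change that was not called.

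Clock genes made up 8 of the 10 called genes. Of the 18 tested genes in 5 lists of the core clock (activators, Per and Cry repressors, the REV-ERB and ROR loop, the PAR bZIP factors and the DEC repressors), 5 were called higher and 3 lower, and 15 had an unadjusted p under 0.05. Their median log2 fold change was 0.54, against 0.0013 over all genes. The sign was the same in all 6 groups for 11 of the 18, against 5.51% of all genes.

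Ciart and Tef were the only genes tested, besides Dbp, whose 2 high libraries lay above both low libraries in all 6 groups (2 of 16278, 0.0123%). Npas2 was the only gene whose 2 high libraries lay below both low libraries in all 6 groups (0.00614%). In at least 5 groups, 14 genes lay above (0.086%) and 13 lay below (0.0799%).

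Ciart (ENSMUSG00000038550, chr3:95878503-95882251, minus strand, mm10) encodes CHRONO, a repressor that binds ARNTL, and had the smallest p of any gene tested. In the high libraries Ciart was at 4.23 and 12.2 CPM in F Veh, 33.4 and 52.1 in M Veh, 5.19 and 10.3 in F 9, 8.94 and 16.2 in M 9, 4.84 and 15.4 in F 15 and 2.74 and 4.13 in M 15. In the low libraries it was at 0.979 and 1.58 CPM in F Veh, 3.72 and 6.71 in M Veh, 1.59 and 2.30 in F 9, 0.399 and 1.33 in M 9, 0.715 and 1.45 in F 15 and 1.11 and 1.79 in M 15. The levels separated within every group, and the middle library lay between the mean of the high and the mean of the low libraries in all 6. The log2 fold change was 2.64 (SE 0.31, 12 against 12 libraries, edgeR adjusted p = 0.000713).

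The promoter of Ciart is shown because it carried 3 copies of the E-box CACGTG, at 116, 58 and 44 bases before the start. That of Cry1 is shown because it also carried an E-box, 60 bases before the start, although Cry1 was lower and not higher in the high libraries. That of Per3 is shown because it carried 2 copies of the D-box, searched as TTATGTAA and TTACGTAA, the first of them 205 bases before the start. Each sequence is the 250 bases before the start of the gene from RefSeq (GRCm38.p6, 5′ to 3′ on the strand of the gene), with the motif matches in capitals.
Ciart, chr3:95882229-95882478, minus strand: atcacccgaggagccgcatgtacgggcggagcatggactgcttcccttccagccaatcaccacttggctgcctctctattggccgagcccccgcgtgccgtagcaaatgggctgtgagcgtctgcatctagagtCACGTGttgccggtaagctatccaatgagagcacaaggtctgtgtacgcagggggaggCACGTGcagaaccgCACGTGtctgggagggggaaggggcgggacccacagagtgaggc
Cry1, chr10:85185055-85185304, minus strand: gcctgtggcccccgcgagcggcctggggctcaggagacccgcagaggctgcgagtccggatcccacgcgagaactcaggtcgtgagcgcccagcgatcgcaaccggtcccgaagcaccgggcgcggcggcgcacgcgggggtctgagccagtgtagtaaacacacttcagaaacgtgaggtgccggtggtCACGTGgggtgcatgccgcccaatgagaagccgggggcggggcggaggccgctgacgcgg
Per3, chr4:151044666-151044915, minus strand: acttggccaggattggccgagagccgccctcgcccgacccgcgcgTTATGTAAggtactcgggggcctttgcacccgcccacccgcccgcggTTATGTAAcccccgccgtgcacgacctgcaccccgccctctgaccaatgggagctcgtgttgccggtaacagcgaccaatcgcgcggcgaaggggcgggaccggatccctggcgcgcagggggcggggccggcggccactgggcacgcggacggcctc
On both strands of the whole windows of 300 bases (250 before and 50 after the start), the E-box was found in 7.15% of 32851 promoters, the D-box in 1.06% and the ROR element TAGGTCA in 2.61%. Windows were found for 8 of the 10 called genes. Each of the 2 windows of Tef held 1 E-box and 1 of the 2 windows of Per1 held 1, and 1 of the 2 windows of Arntl held a ROR element 30 bases after the start. The windows of Dbp, Npas2, Usp2 and Nr1d1 held none of the 3 motifs. A match is a description of letters in a short window and not evidence of binding.

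Tef (ENSMUSG00000022389, chr15:81802421-81826861, plus strand), a PAR bZIP factor that binds the same D-boxes as Dbp, was higher in the high libraries. They held from 54.2 to 352 CPM (median 96.3) and the low libraries from 15.8 to 114.3 CPM (median 35.4). The groups were nearest in M 15, with 54.2 and 60.6 CPM against 36.3 and 40.2, and farthest apart in M 9, with 84.8 and 153 against 15.8 and 22.9. The log2 fold change was 1.51 (SE 0.22, edgeR adjusted p = 0.0040). In all 6 groups the middle library lay between the means of the high and low libraries. The third PAR bZIP factor, Hlf, was barely present, with a median of 0.557 CPM in the high and 0.186 CPM in the low libraries and 13.0 CPM in M Veh replicate 1. Its log2 fold change of 1.69 (SE 0.67) did not pass (edgeR adjusted p = 0.59), and without M Veh replicate 1 it was 1.13 (SE 0.58).

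All 3 Per genes, repressors of the ARNTL complex, were higher in the high libraries. Per3 ran from 14.6 to 199 CPM (median 39.8) in the high and from 7.80 to 50.2 CPM (median 15.5) in the low libraries, and its levels separated within every group but M 15, where 14.6 and 25.1 CPM stood against 7.80 and 21.6. Its log2 fold change was 1.35 (SE 0.20, edgeR adjusted p = 0.0040). Per2 ran from 11.99 to 88.9 CPM (median 44.5) against 6.27 to 29.8 (median 15.6), with a log2 fold change of 1.38 (SE 0.25, edgeR adjusted p = 0.034). Its levels separated in 4 of 6 groups. Per1 ran from 17.0 to 151 CPM (median 37.3) against 11.1 to 26.6 (median 16.9), with a log2 fold change of 1.25 (SE 0.23, edgeR adjusted p = 0.034). It separated in 5 of 6 groups. Per1 and Per2 were near the threshold, and with 1 library left out in turn Per1 stayed called in 7 and Per2 in 5 of 24 fits, with log2 fold changes from 1.12 to 1.35 and from 1.23 to 1.502.

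The Cry genes, whose proteins join PER in repression, did not move alike. Cry1 (ENSMUSG00000020038) was lower in the high libraries, with 7.41 to 22.1 CPM (median 13.6) against 10.6 to 35.3 CPM (median 23.4). The distance was largest in M 9, where 14.3 and 15.3 CPM stood against 28.7 and 35.3, and the levels met in M Veh and F 15. The log2 fold change was -0.73 (SE 0.12, edgeR adjusted p = 0.011). Cry2 was at a median of 41.9 CPM in the high and 30.7 CPM in the low libraries and did not pass (log2 fold change 0.40, SE 0.18, edgeR adjusted p = 0.61).

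Npas2 (ENSMUSG00000026077, chr1:39193731-39363236, plus strand), a partner of ARNTL that can take the place of CLOCK, differed by less than the other called genes but with little spread. The high libraries were at 34.6 and 34.6 CPM in F Veh, 15.9 and 20.6 in M Veh, 21.4 and 22.1 in F 9, 24.9 and 27.6 in M 9, 13.6 and 16.1 in F 15 and 22.9 and 29.0 in M 15. The low libraries were at 37.6 and 41.3 CPM in F Veh, 29.2 and 29.4 in M Veh, 25.2 and 28.7 in F 9, 37.0 and 39.6 in M 9, 28.3 and 33.2 in F 15 and 34.7 and 42.8 in M 15. The difference was smallest in F Veh, and the log2 fold change was -0.58 (SE 0.076, edgeR adjusted p = 0.0017).

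Arntl (ENSMUSG00000055116, chr7:113207465-113314122, plus strand), which encodes the partner of CLOCK and NPAS2, was at 11.4 to 43.0 CPM (median 27.9) in the high and at 32.0 to 71.8 CPM (median 48.3) in the low libraries. In F 15 the high libraries held 11.4 and 12.7 CPM and the low libraries 42.9 and 45.3, and in M Veh 14.8 and 14.9 stood against 38.0 and 47.9. The levels met only in F 9, with 30.04 and 32.3 CPM against 32.0 and 52.998. The log2 fold change was -0.99997 (SE 0.15, edgeR adjusted p = 0.0040). Clock, the other activator, was at a median of 113 CPM in the high and 108 CPM in the low libraries, with a log2 fold change of -0.0061 (SE 0.12, edgeR adjusted p = 1.0). Arntl2, a paralog of Arntl at low level, had a log2 fold change of 0.25 (SE 0.17) and did not pass.

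**Figure D3:**
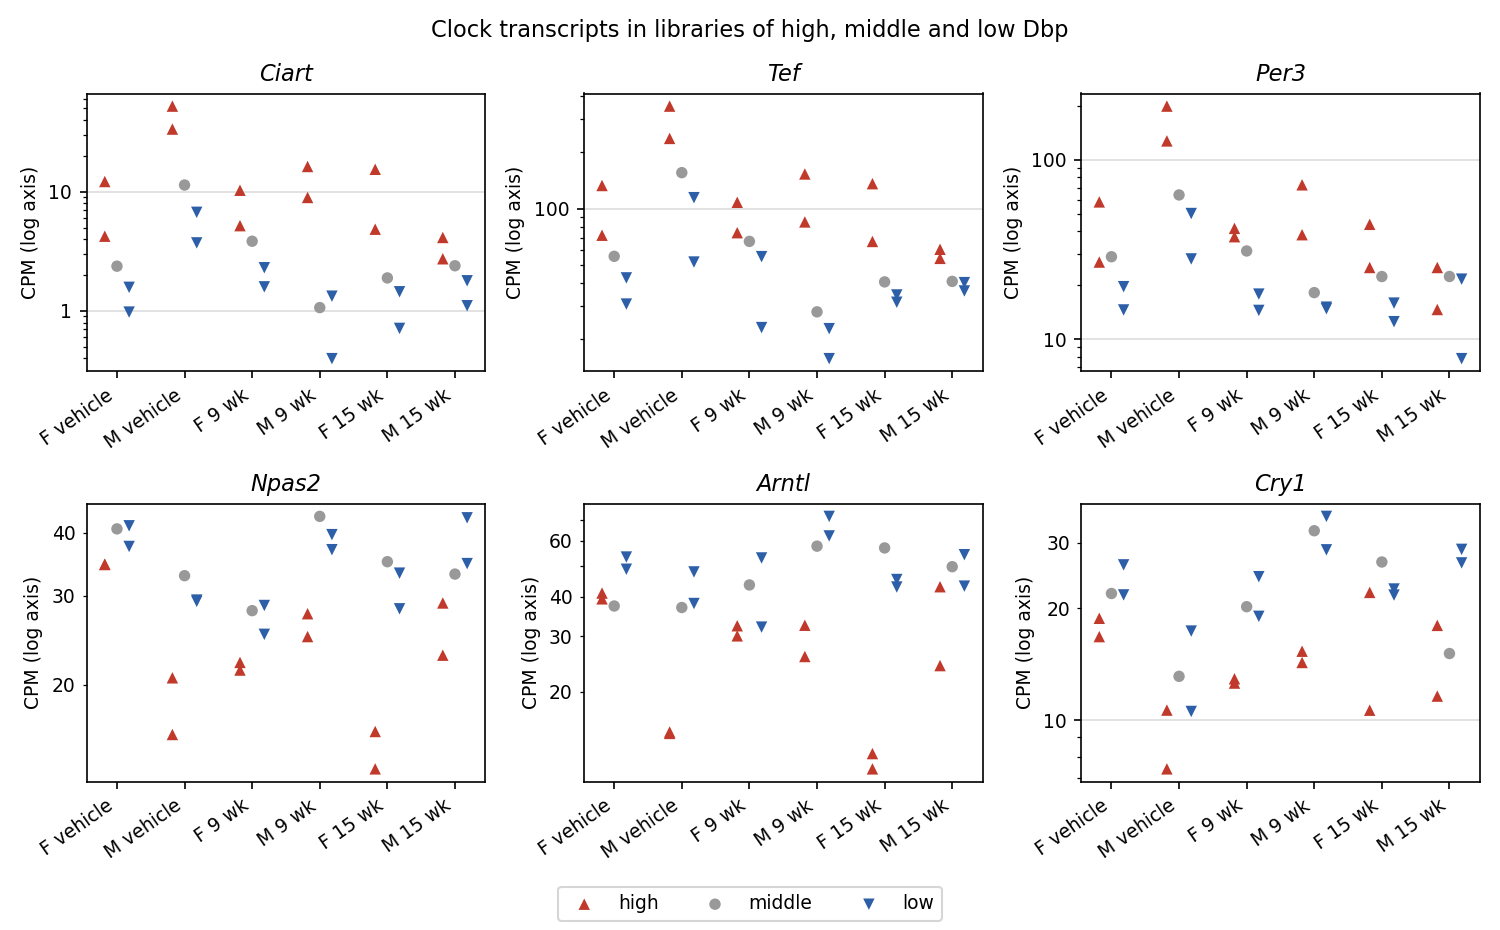
CPM (log axes) of Ciart, Tef, Per3, Npas2, Arntl and Cry1 in each library, by group, with red triangles for high, grey circles for middle and blue triangles for low Dbp libraries. Red lay above blue in all 6 groups for Ciart and Tef and in 5 groups for Per3, and below blue in all 6 groups for Npas2, in 5 for Arntl and in 4 for Cry1.

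The REV-ERB and ROR loop gave no gene called by edgeR. Nr1d1, which encodes REV-ERBα, was at 74.1 to 302 CPM (median 119) in the high and at 23.5 to 153.97 CPM (median 72.0) in the low libraries. It was higher in the mean of the high libraries in all 6 groups and separated in 4, but its log2 fold change of 0.85 (SE 0.20) did not pass (edgeR adjusted p = 0.22). Nr1d2 had a log2 fold change of 0.67 (SE 0.16, edgeR adjusted p = 0.23). Nfil3, the repressor at D-boxes, was at a median of 4.42 CPM in the high and 8.72 CPM in the low libraries, lower in all 6 groups, with a log2 fold change of -1.02 (SE 0.26, edgeR adjusted p = 0.33). These 3 genes passed all thresholds when DESeq2 was used in place of edgeR, and by edgeR without the filter on low counts. Rora, an activator at ROR elements, had a log2 fold change of 0.16 (SE 0.28), and of -0.018 (SE 0.21) without M Veh replicate 1, and did not pass, nor did the DEC repressors Bhlhe40 (0.28, SE 0.12) and Bhlhe41 (1.17, SE 0.51). Bhlhe41 was barely present, with medians of 0.638 CPM in the high and 0.327 CPM in the low libraries. Without M Veh replicate 1 it was at 0.82 (SE 0.47).

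Ordering the libraries of each group by Nr1d1 in place of Dbp left 18 of the 24 high and low libraries in their level and put 3 in the opposite one. No gene was called under that order, where 910 genes had an unadjusted p under 0.05 by edgeR. Dbp, tested there since it was not used, had a log2 fold change of 2.20 (SE 0.41) and Ciart one of 2.24 (SE 0.41). Arntl stood at -0.84 (SE 0.18) and Npas2 at -0.40 (SE 0.12) under it.

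**Figure D4:**
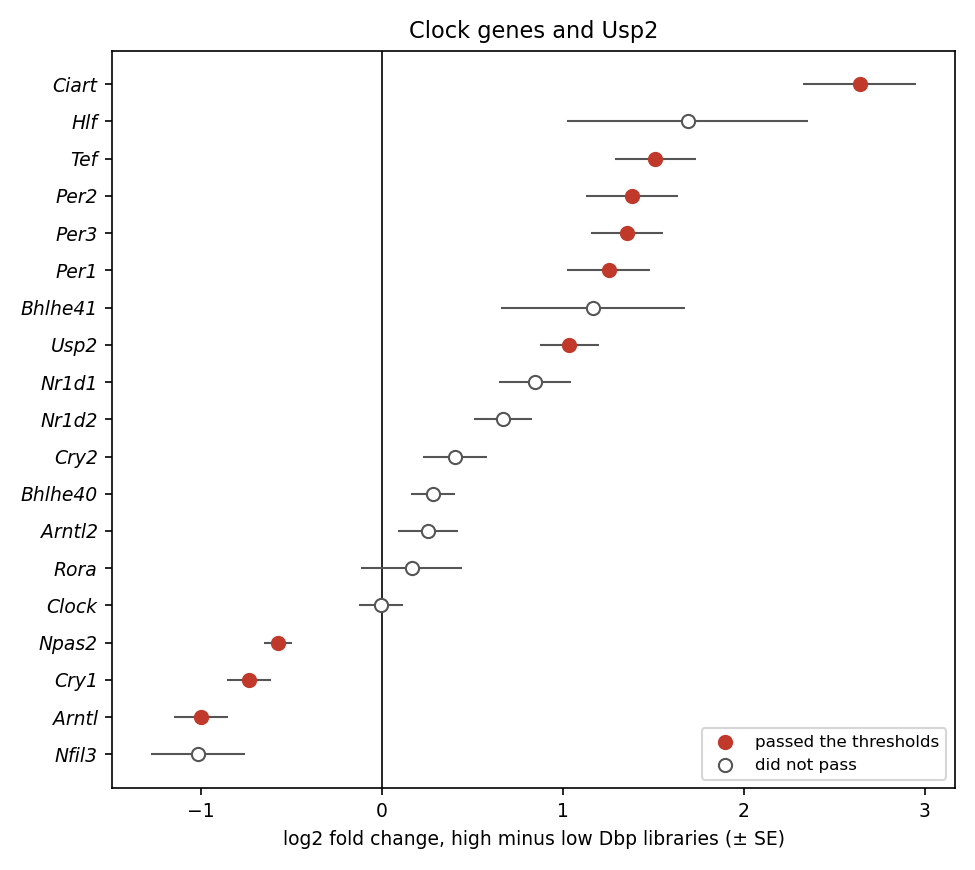
Log2 fold change (high minus low Dbp libraries, x axis) with its standard error for the 18 tested clock genes and Usp2, filled where the gene was called. Ciart stood farthest to the right at 2.64, Clock lay at 0 within its error, and Arntl (-0.99997), Cry1 (-0.73) and Npas2 (-0.58) lay to the left together with Nfil3 (-1.02), which was not called.

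The 2 remaining called genes lay outside the core clock lists. Usp2 (ENSMUSG00000032010, chr9:44067021-44095627, plus strand), a ubiquitin protease that acts on clock proteins and is itself an output of the clock, was at 14.6 to 65.8 CPM (median 31.1) in the high and at 9.87 to 33.8 CPM (median 13.9) in the low libraries. It separated in 5 of 6 groups, with a log2 fold change of 1.04 (SE 0.16, edgeR adjusted p = 0.0089), and it was the only called gene of 14 tested modifiers of clock proteins. Igkv4-63 (ENSMUSG00000076550), a variable segment of the immunoglobulin kappa light chain, was at 0.107 to 44.5 CPM (median 1.26) in the high and at 0 to 1.13 CPM (median 0.147) in the low libraries. Its highest values were 44.5 and 7.72 CPM in F 9, and its middle library in M Veh held 4.68 CPM against at most 0.228 CPM in the high libraries of that group. The log2 fold change was 3.65 (SE 0.59, edgeR adjusted p = 0.010). Segments of this family are close in sequence and reads can be split between them, so its counts are uncertain. None of the 7 plasma cell markers was called, and their summed level had a median of 1293 CPM in the high and 1027 CPM in the low libraries. In bulk tissue, fewer cells of a type and less RNA per cell cannot be told apart. Just outside the thresholds, Rnf43, an inhibitor of Wnt signalling, had an edgeR adjusted p of 0.023 but a log2 fold change of 0.38 (SE 0.067), chosen for mention after its values were seen.

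The difference between high and low libraries was then compared between sexes and treatments. No gene had a different response in males than in females (0% of 16580 tested by edgeR, 532 with an unadjusted p under 0.05). None differed between 9 weeks and vehicle (0%, 436 at unadjusted p) or between 15 weeks and vehicle (0%, 986 at unadjusted p). Ciart had a log2 fold change of 2.57 (SE 0.45) in females and 2.71 (SE 0.46) in males, and Arntl had -0.90 (SE 0.21) and -1.10 (SE 0.21). Tef had 1.58 (SE 0.39) in vehicle, 1.82 (SE 0.40) at 9 weeks and 1.13 (SE 0.39) at 15 weeks. Per3 had 1.63 (SE 0.34), 1.51 (SE 0.34) and 0.91 (SE 0.34). Npas2 had -0.47 (SE 0.13), -0.50 (SE 0.13) and -0.77 (SE 0.13), and its difference between 15 weeks and vehicle was -0.29 (SE 0.18, edgeR adjusted p = 0.77). These differences carry wide errors, and a p that missed the threshold does not show that the responses were alike.

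**Figure D5:**
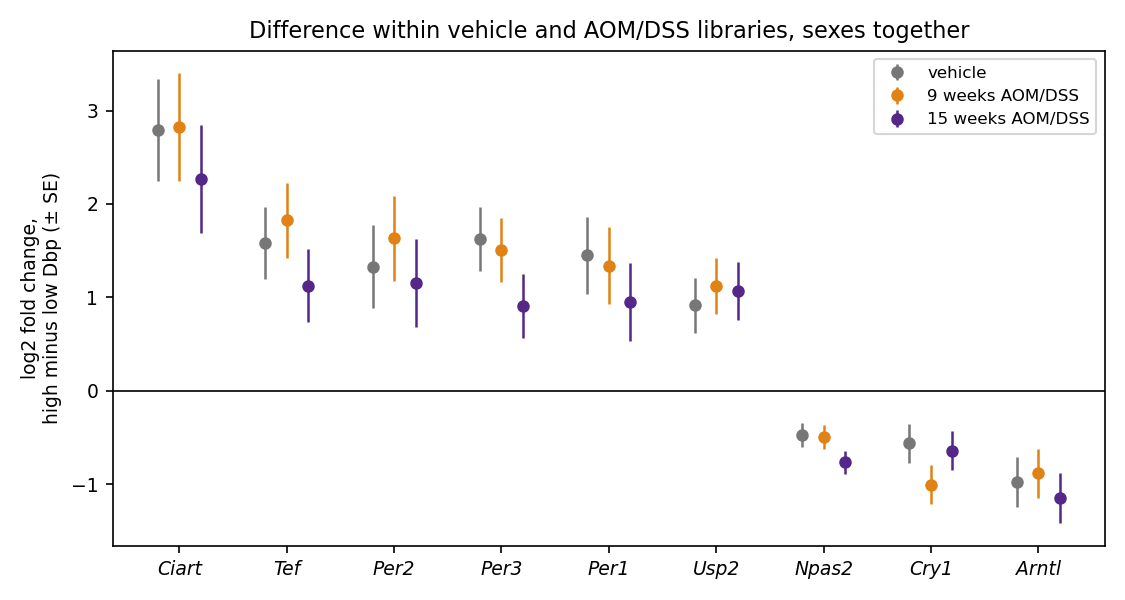
Log2 fold change between high and low Dbp libraries with its standard error for the 9 called clock-related genes, within vehicle, 9 weeks and 15 weeks, sexes together. Every point of Ciart, Tef, the Per genes and Usp2 lay above 0 and every point of Npas2, Cry1 and Arntl below 0.

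Beyond the clock, 26 further lists were examined and 24 of them held no gene called by edgeR. The exceptions were the modifiers of clock proteins, through Usp2, and 18 tested glucocorticoid response genes, through Per1. Among 26 tested clock outputs of many tissues, none was called by edgeR and 7 had an unadjusted p under 0.05, against 8.1% of all genes. Pim3, a kinase among them, passed with DESeq2 and without the filter on low counts. The largest difference was that of Tspan4 (log2 fold change 0.99, SE 0.31, edgeR adjusted p = 0.46). Without M Veh replicate 1 it was 0.74 (SE 0.25). Of 14 genes of the heat shock and temperature response, which can follow body temperature, none was called, and Hspa1a stood at -1.05 (SE 0.42). Hspa1a was at a median of 2.11 CPM in the high and 3.10 CPM in the low libraries, with up to 43.0 CPM in a low library. Its log2 difference ran from -2.51 in M 15 to 0.42 in M Veh. Of 13 genes of fasting and fat oxidation, none was called by edgeR, Acot1, an acyl-CoA thioesterase, passed with DESeq2, and Pdk4, which turns cells from glucose to fat, stood at -0.87 (SE 0.43). Scnn1g, a sodium channel subunit among 19 transporters, stood at 1.47 (SE 0.64) and at 0.95 (SE 0.64) without M Veh replicate 1, Fabp4, a fatty acid binding protein among 16 genes of lipid uptake and synthesis, at 0.81 (SE 0.46), and Esr2, the estrogen receptor beta gene among 29 nuclear receptors, at 0.96 (SE 0.42). Cyp2c55 led 24 detoxification enzymes, Egr2 19 immediate early genes (-0.53, SE 0.40) and Il1a 14 genes of neutrophil and cytokine inflammation (1.47, SE 0.88). Il1a was barely present, with a median of 0.309 CPM in the high and 0.046 CPM in the low libraries. Its maximum was 24.3 CPM in the high and 40.8 CPM in the low libraries, and it stood at -0.41 (SE 1.18) in females and 2.70 (SE 1.04) in males. None of these 6 lists held a called gene. The lists of NAD metabolism, p53 targets, cholesterol synthesis, and antimicrobial and mucosal defence held no gene with an unadjusted p under 0.05 in either direction, and the largest differences in them were 0.19 (SE 0.13) for Cd38, -0.29 (SE 0.14) for Sesn1, 0.14 (SE 0.073) for Sc5d and 0.61 (SE 0.94) for Lcn2.

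The cell cycle list leaned lower in the high libraries without a call. Of its 23 tested genes, 8 were lower with an unadjusted p under 0.05, against 3.61% of all genes, and the median log2 fold change was -0.24. Without M Veh replicate 1 the median was -0.15, with 9 of the 23 genes higher. Ccnd2, a cyclin of the early cycle, went the other way at 0.51 (SE 0.16, edgeR adjusted p = 0.46). Of the 7 genes of MHC class II, 4 were higher with an unadjusted p under 0.05, against 4.49% of all genes, with a median of 0.75, and Ciita, their activator, stood at 0.92 (SE 0.38, edgeR adjusted p = 0.61). Neither list held a called gene.

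Markers of position along the colon differed in level between high and low libraries without a call by edgeR. The 5 tested markers of the distal colon were all higher, with a median log2 fold change of 3.31, which was 2.74 without M Veh replicate 1. They ranged from 0.14 for Hoxa13 to 4.18 for Hoxd12, which averaged only 0.375 FPKM in the high and 0.0066 FPKM in the low libraries. Hoxd11, a posterior Hox gene among them, passed with DESeq2, and Hoxd11 and Hoxd13 passed without the filter on low counts. Their summed level ran from 21.5 to 842 CPM (median 258) in the high libraries, with the highest value in M Veh replicate 1 and 541 CPM in the next, and from 18.6 to 379 CPM (median 151) in the low libraries. Hoxd12, a defining posterior Hox gene, was at 0 in most libraries. It reached at most 0.383 CPM in the low and 11.8 CPM in the high libraries, so it entered the tests through the high libraries. That Hoxd12 came out higher was thus largely set by the filter, and it counts in the median of the distal markers. Without M Veh replicate 1 it stood at 2.88 (SE 1.06). The 6 genes listed as markers of the proximal colon had a median of -0.85. Whether each of them marks that end of the colon was not tested. Their sum ran from 414 to 4717 CPM (median 1039) in the high and 1101 to 5526 CPM (median 2379) in the low libraries. Cyp2c55, a cytochrome P450 of the proximal colon, stood at -0.94 (SE 0.38, edgeR adjusted p = 0.59). On that list 2 of the 6 markers were higher, Fxyd4 among them at 1.51 (SE 0.80). The mean of the list, used below as the proximal score, thus joins members of both directions. With the difference of the distal and proximal scores as a covariate, Ciart, Arntl and Npas2 stayed called, with log2 fold changes of 2.56 (SE 0.36), -1.12 (SE 0.17) and -0.59 (SE 0.090), and the other 7 did not. Under it Tef was at 1.48 (SE 0.27), Usp2 at 1.08 (SE 0.20), Per1 at 1.17 (SE 0.28), Per2 at 1.11 (SE 0.29), Per3 at 1.11 (SE 0.21), Cry1 at -0.62 (SE 0.14) and Igkv4-63 at 3.18 (SE 0.72). Some genes that were not called became much smaller under it: Esr2 0.14, Pdk4 -0.11, Ccnd2 0.20, Lum 0.14 and Csf1r 0.19. Others changed less (Tspan4 0.87, Hspa1a -0.88, Fabp4 0.72, Il1a 1.11) or became larger in size (Egr2 -1.23, Cr2 -1.63). Cyp2c55 went to -0.20, but it is itself a part of the proximal score, so its fall under the covariate was built in.

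All 14 mesenchyme, all 10 smooth muscle and all 10 macrophage markers had a positive log2 fold change, with medians of 0.75, 1.15 and 0.59 and none called by edgeR. Without M Veh replicate 1 these medians were 0.38, 0.21 and 0.39, with 14, 8 and 9 of the markers positive. Summed mesenchyme markers ran from 45.3 to 2035 CPM (median 269) in the high and from 32.9 to 368 CPM (median 145) in the low libraries, with the highest value in M Veh replicate 1. Summed macrophage markers ran from 33.5 to 322 CPM (median 160) against 31.6 to 290 CPM (median 98.6). Summed smooth muscle markers had medians of 65.8 and 66.3 CPM. Without M Veh replicate 1, 5 genes were called higher and 3 lower, all among the 10 and without Per1 and Per2. With the mesenchyme score as a covariate the counts were also 5 and 3. Markers of B cells (median -0.18, and 0.021 without M Veh replicate 1), T cells (0.21) and epithelium (0.00071) gave no called gene. The widest differences among the markers were Lum at 1.21 (SE 0.60) for mesenchyme, Cnn1 at 1.34 (SE 0.93) for smooth muscle, Csf1r at 0.78 (SE 0.38) for macrophages (0.81, 0.27 and 0.51 without M Veh replicate 1), Tnfrsf17 at 0.92 (SE 0.48) for plasma cells, Cr2 at -0.45 (SE 0.76) for B cells, Cd4 at 0.48 (SE 0.33) for T cells and Cdx2 at -0.32 (SE 0.34) for epithelium, with Cr2 at -0.29 and Cdx2 at -0.16 without that library. Whether these cells or the position along the colon had a part in the differences of the clock genes was not tested beyond the covariates and the left-out library.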

How the data were processed

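Messenger RNA was sequenced from colon scrapings of 30 mice, and each library was placed in its group by the labels. The authors trimmed the reads with Trim Galore, aligned them to mm10 with STAR and counted them per gene with featureCounts, and the deposited counts, a table of 46078 genes, are raw. The FPKM values are the authors' StringTie estimates, used only for the minimum level, and repeated lines of a gene in a file were added. The deposited TPM and coverage columns of the same files were not used.

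Raw counts were tested with edgeR 4.0.16 (R 4.3.3) after filterByExpr on the design. Libraries were scaled by TMM (factors 0.833 to 1.13), and a quasi-likelihood model with 1 term per group and 1 term for high against low Dbp was fitted to the 24 libraries (17 residual degrees of freedom, common biological coefficient of variation 0.325). Separate terms by sex or treatment gave the differences between them. The paper's thresholds of adjusted p, fold and FPKM were used, though the paper names DESeq2. The standard error is the log2 fold change divided by the root of its F statistic. Levels in the text are CPM without TMM. The filter was first run by group and level with Dbp among the adjusted genes, and was replaced after the calls had been seen, and both gave the same 10 genes. Recovery was tested on simulated data.

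The genes named are the tested members of the 5 clock lists, called genes with 1 sign in all 6 groups, and in other lists the called members or the one with the largest difference. Members and lists were chosen with earlier results of these data known, the lists from general knowledge, and 1 gene is not reported here. Replicates are separate mice, and duplicate reads were kept. Replicate numbers were checked as pairs and do not pair the libraries. Promoters and motifs are from RefSeq on GRCm38.p6. Alternatives included DESeq2 1.42.0, other filters, scalings, orders and covariates, and each library or group left out.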

Additional observations from a re-analysis of the deposited data

Results flagged for a closer look

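Within the groups of 5 libraries, 5 of 126 sets of a group and a gene (clock genes, Dbp and the called genes) held a library that stood apart from the other 4 by Dixon's criterion, and chance flags about 1 set in 20. All values are log2 CPM. Of the 5 libraries, 4 were high Dbp libraries, against 12 of all 30 libraries. With so few flags, this split is not read as a trait of the high libraries. In M 15 replicate 5, Arntl was at 4.65 against a group median of 5.60. In F 15 replicate 2, Cry1 was at 3.68 against 4.54. In F 9 replicate 2, Per1 was at 5.50 against 4.28. In F Veh replicate 1, the library of that group with the most Dbp, Nfil3 was at 2.07 against 3.17. The only low Dbp library was F 9 replicate 4, with Nr1d2 at 5.37 against 6.37.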

How the results depend on the processing

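Against 7 genes higher and 3 lower, DESeq2 called 21 and 10, no filter on low counts 26 and 7, and Dbp as a continuous covariate over all 30 libraries 27 and 8. The order by Nr1d1 and 1 library against 1 per group called 0 and 0, where edgeR gave 910 and 1281 genes at an unadjusted p under 0.05. The distal minus proximal covariate called 1 and 2. By left-out group the counts were 5 and 3 (F Veh), 4 and 2 (M Veh), 3 and 2 (F 9), 1 and 1 (M 9), 1 and 2 (F 15) and 7 and 2 (M 15). The cause of these shifts was not tested, except that left-out groups and 1 library per level leave fewer libraries. With 1 library left out in turn, 5 to 8 genes were called higher and 3 to 5 lower, with 5 lower without F Veh replicate 2, and Ciart, Tef, Npas2, Arntl, Per3, Usp2, Cry1 and Igkv4-63 stayed called in all 24 fits. Leaving out the highest and lowest library of M Veh, chosen after the data were seen, gave 5 and 2. With a replicate block 2 and 2 genes were called (Ciart, Tef, Npas2 and Arntl). The numbers do not pair the libraries, since the median correlation of same-numbered libraries was -0.029 and 4 of 30 correlated best with their own number.

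The differences by sex, 9 weeks and 15 weeks gave 0 calls, against 0, 3 and 3 with DESeq2 and 7, 75 and 125 without the filter, and by sex 0 to 1 with 1 library left out. With DESeq2 they were Ighv2-3, Krt6a (log2 difference -19.6) and Krt4 (-22.6) at 9 weeks, and Natd1, Krt6a (-19.8) and Lrch3 at 15 weeks. The differences of Krt6a and Krt4 are larger than counts of this depth can measure and are not read as sizes. The call by sex was Eif2s3y (7.19, without F Veh replicate 3). Eif2s3y is Y-linked, so this value is not read as a response that differs between the sexes. Without the filter 27634 genes were tested, down to those with hardly any counts.

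No called gene reversed. Clock, near 0, was at 0.058 with the replicate block, 0.0046 with the middle libraries in the fit, 0.0064, 0.027, 0.070 and 0.0070 without F Veh, M Veh, F 15 and M 15, and -0.081 to 0.056 with 1 library left out. Under the order by Nr1d1, Arntl2 was at -0.19, Cd38 at -0.11, Esr2 at -0.018, Sesn1 at 0.045 and Egr2 at 0.021. With the distal minus proximal covariate, Rora was at -0.012, Scnn1g at -0.11, Cnn1 at -0.38, Cd4 at -0.0078, Cdx2 at 0.12 and Fxyd4 at -0.27. Fxyd4 is itself a part of the proximal score in that covariate. Lcn2 was at -0.25 with the mesenchyme covariate, -0.13 without M 15 and -0.19 to 1.30 with 1 library left out. Rora was at -0.17 without M Veh and -0.065 to 0.29, and Cr2 at -0.82 to 0.20, with 1 library left out. These are log2 fold changes of genes that were not called.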
